A study of Mus musculus with 6 samples.

Results

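The genes described here are 39 genes of fatty acid oxidation and of the peroxisome proliferator-activated receptor (PPAR) programme, measured in mouse hearts by RNA sequencing. They were listed by gene symbol, with earlier results of these data known, as enzymes, transporters, lipid droplet proteins, PPAR targets and regulators of the pathway. All 39 were among the 45777 genes of the table, and all 39 passed the filter of a mean of 10 counts per library that 18328 genes passed. Each of 6 libraries held RNA pooled from the hearts of several mice, per the methods of the study, so every condition had 1 library and no biological replicate.

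The mice were female BALB/c nude mice, 6 weeks old at the start of the study, before treatment began. The methods of the study also call them wild-type BALB/c. All of them, Control included, carried subcutaneous tumours of MDA-MB-231, a human breast cancer line. The conditions over 3 weeks were vehicle (Control), the ginsenoside Rh2 at 20 or 30 mg/kg daily (Rh2-20 mg/kg and Rh2-30 mg/kg), repeated doses of 2 mg/kg doxorubicin (Dox) up to a cumulative 22 mg/kg, and Dox combined with either amount of Rh2. Dox is an anthracycline that is toxic to the heart, and the design asks what it does to heart transcripts and whether Rh2 alters that response. Nude mice lack T cells, and no tumour-free group was analysed here.

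A working heart draws most of its energy from fatty acids. They enter cardiomyocytes through carriers such as Cd36, are activated to acyl-CoA, cross into mitochondria on the carnitine shuttle and are shortened by the enzymes of beta-oxidation, which pass electrons on through the electron transfer flavoprotein (ETF). PPARs are fatty acid sensing nuclear receptors that bind DNA with the retinoid X receptor at direct repeats of a half-site, and Ppargc1a is a coactivator that works with them and with Esrra on genes of oxidative metabolism.

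The libraries held 86164411 to 90621002 counts, and levels are given as counts per 1000000 (CPM) after scaling by the trimmed mean of M values (TMM). The cardiomyocyte list was the most abundant marker list in every library, at 98768 to 135025 summed CPM, lowest in Rh2-30 mg/kg. That library stood apart in its tissue markers. The atrial list summed to 1825 CPM there against 82.8 for Control, 93.4 with Rh2-20 mg/kg, 445 with Dox, 548 with Rh2-20 mg/kg + Dox and 110 with Rh2-30 mg/kg + Dox. Adipoq, a white fat hormone, was 39.2 CPM in Rh2-30 mg/kg and at most 7.73 in the other libraries, and Ucp1 of brown fat was 67.9 against at most 0.138. In pooled tissue a smaller share of a cell type and less RNA per cell cannot be told apart, and the part of these markers in the results below was not tested unless a value is given.

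**Figure D1:**
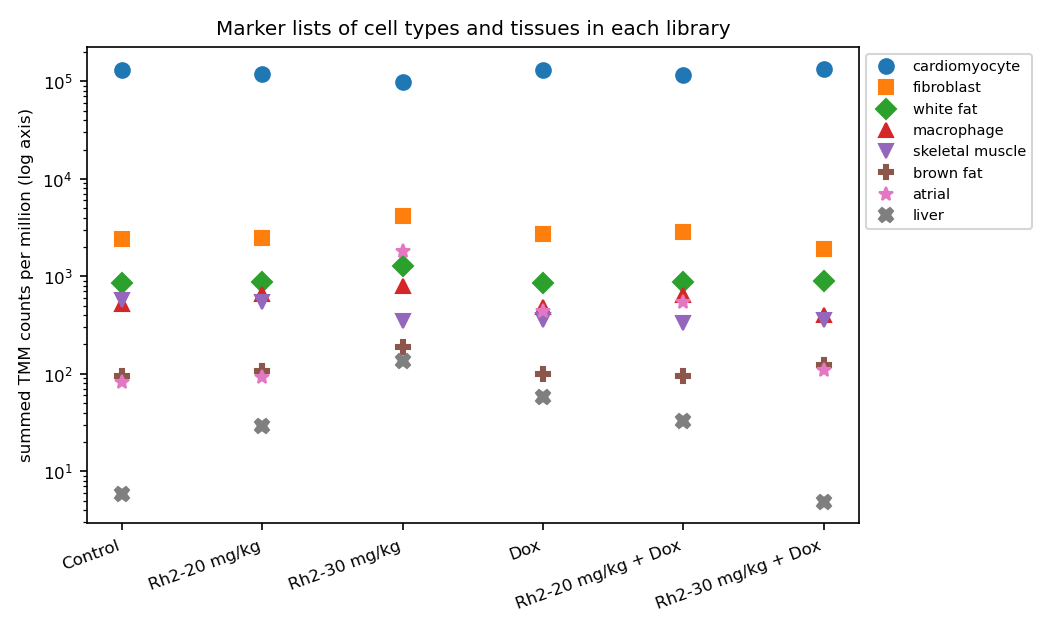
Summed TMM-scaled CPM (log axis) of 8 marker lists in each of the 6 libraries, 1 point per list and library. The atrial list lies highest in Rh2-30 mg/kg at 1825 CPM and the cardiomyocyte list lies lowest there at 98768 CPM.

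Promoter stretches are shown for 5 of the members that separated the libraries with Dox from those without, so that the receptor half-sites near their starts can be seen. Each is the 250 bases before a RefSeq start (GRCm38.p6), read on the strand of the gene, and capitals mark the half-site AGGTCA on either strand and the direct repeat AGGTCANAGGTCA with up to 2 mismatches.
Ucp3 (chr7:100472741-100472990, plus strand): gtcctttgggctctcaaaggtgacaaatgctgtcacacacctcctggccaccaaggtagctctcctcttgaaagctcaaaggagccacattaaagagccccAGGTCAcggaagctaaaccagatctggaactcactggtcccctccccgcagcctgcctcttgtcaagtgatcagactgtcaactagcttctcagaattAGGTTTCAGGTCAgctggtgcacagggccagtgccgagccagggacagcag
Plin2 (chr4:86670060-86670309, minus strand): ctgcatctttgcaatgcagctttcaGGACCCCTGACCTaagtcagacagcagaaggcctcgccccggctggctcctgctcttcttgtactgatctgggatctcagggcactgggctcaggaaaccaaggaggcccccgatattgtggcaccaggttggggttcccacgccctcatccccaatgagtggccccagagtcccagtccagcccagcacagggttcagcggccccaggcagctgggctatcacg
Cpt1a (chr19:3323051-3323300, plus strand): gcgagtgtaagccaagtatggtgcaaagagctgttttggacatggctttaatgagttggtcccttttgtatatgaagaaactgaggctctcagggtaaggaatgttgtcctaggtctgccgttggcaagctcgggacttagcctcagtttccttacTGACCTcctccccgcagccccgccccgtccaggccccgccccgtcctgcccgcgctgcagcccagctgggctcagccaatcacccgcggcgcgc
Pdk4 (chr6:5496279-5496528, minus strand): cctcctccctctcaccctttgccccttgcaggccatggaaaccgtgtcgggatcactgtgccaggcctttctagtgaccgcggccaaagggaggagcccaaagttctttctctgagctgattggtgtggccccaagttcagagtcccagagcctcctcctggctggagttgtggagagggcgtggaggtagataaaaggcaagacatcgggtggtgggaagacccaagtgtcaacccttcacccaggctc
Ppargc1a (chr5:51567726-51567975, minus strand): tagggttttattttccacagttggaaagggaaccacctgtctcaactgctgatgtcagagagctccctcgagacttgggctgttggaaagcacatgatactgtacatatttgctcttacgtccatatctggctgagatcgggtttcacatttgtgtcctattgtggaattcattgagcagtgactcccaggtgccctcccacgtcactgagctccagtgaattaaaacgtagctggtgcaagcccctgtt
In the upstream stretch of Ucp3 a half-site lay 149 to 144 bases before the start, and a repeat with 2 mismatches, AGGTTTCAGGTCA, lay 51 to 39 bases before it and holds another half-site. Plin2 had such a repeat 225 to 213 bases before the start used, on the other strand, and Cpt1a had a half-site 94 to 89 bases before the start used. None of these letters stood in the stretches shown for Pdk4 and Ppargc1a, or in those of Cpt2 and Ppara, which also separated and are not shown. Angptl4, which separated too, had no window. Of the stretches shown, those of Plin2, Cpt1a and Ppargc1a precede a start inside the annotated span of the gene and not its outermost start.

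Across the members, 33 of 39 had a RefSeq promoter window, 37 windows in all, and only the 250 bases before the start were searched. Acaa2, Angptl4, Cpt1b, Crat, Decr1 and Lpl had none in the table. The half-site was found in 8 genes (Acadm, Acadvl, Cd36, Cpt1a, Echs1, Plin2, Plin5 and Ucp3) and in 14% of all 32851 windows. The direct repeat with up to 2 mismatches was found in 5 genes (Cd36, Echs1, Etfa, Plin2 and Ucp3) and in 3.24% of all windows. No member window held the repeat with up to 1 mismatch, which 0.484% of all windows did, or the site TCAAGGTCA named for estrogen-related receptors, found in 0.387%. A match is a description of the letters in a window and not a bound site.

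By length-scaled level (FPKM, read fragments per kilobase of transcript scaled to depth, as deposited), the members spanned from a mean of 829 for Fabp3, the fatty acid binding protein of heart muscle, to 1.72 for Angptl4, a secreted inhibitor of lipoprotein lipase. Lpl, the lipoprotein lipase itself, followed Fabp3 at a mean of 266 FPKM, with Etfa at 254, Hadhb at 239 and Cd36 at 206. The ranges of the last 4 over the 6 libraries overlapped. Cpt1b, the muscle form of carnitine palmitoyltransferase 1, had a mean of 145 FPKM against 28.3 for Cpt1a, the form best known from liver, and their ranges did not overlap. The receptors were among the lowest members, with mean FPKM of 5.05 for Esrra, 4.24 for Ppara and 3.36 for Ppard, whereas Ppargc1a had 38.9.

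The main comparison set the 3 libraries with Dox (alone or with either Rh2 dose) against the 3 without, with the Rh2 doses serving as the spread. In the quasi-likelihood fit of edgeR, adjusted over 18328 genes by the Benjamini-Hochberg method, 0 members passed an adjusted p of 0.05 in either direction. Among all genes 0.0164% passed as higher and 0.0109% as lower. At an unadjusted p of 0.05, 6 members were lower, against 5.91% of all genes, and 2 were higher, against 4.2%. The same 8 members were those whose libraries with and without Dox did not overlap. Cpt1a, Cpt2, Plin2, Pdk4, Ucp3 and Angptl4 lay below (6 members, against 9.16% of all genes), and Ppara and Ppargc1a lay above (2 members, against 7.85%). The same 6 were lower, and the same 2 higher, with Dox at each of the 3 Rh2 doses, against 17.6% and 15.9% of all genes. For these 8 that order follows from groups that do not overlap. DESeq2's Wald test, which called 0.791% of all genes higher and 1.52% lower, called 5 of the 8, namely Plin2, Pdk4, Ucp3 and Angptl4 as lower and Ppargc1a as higher.

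**Figure D2:**
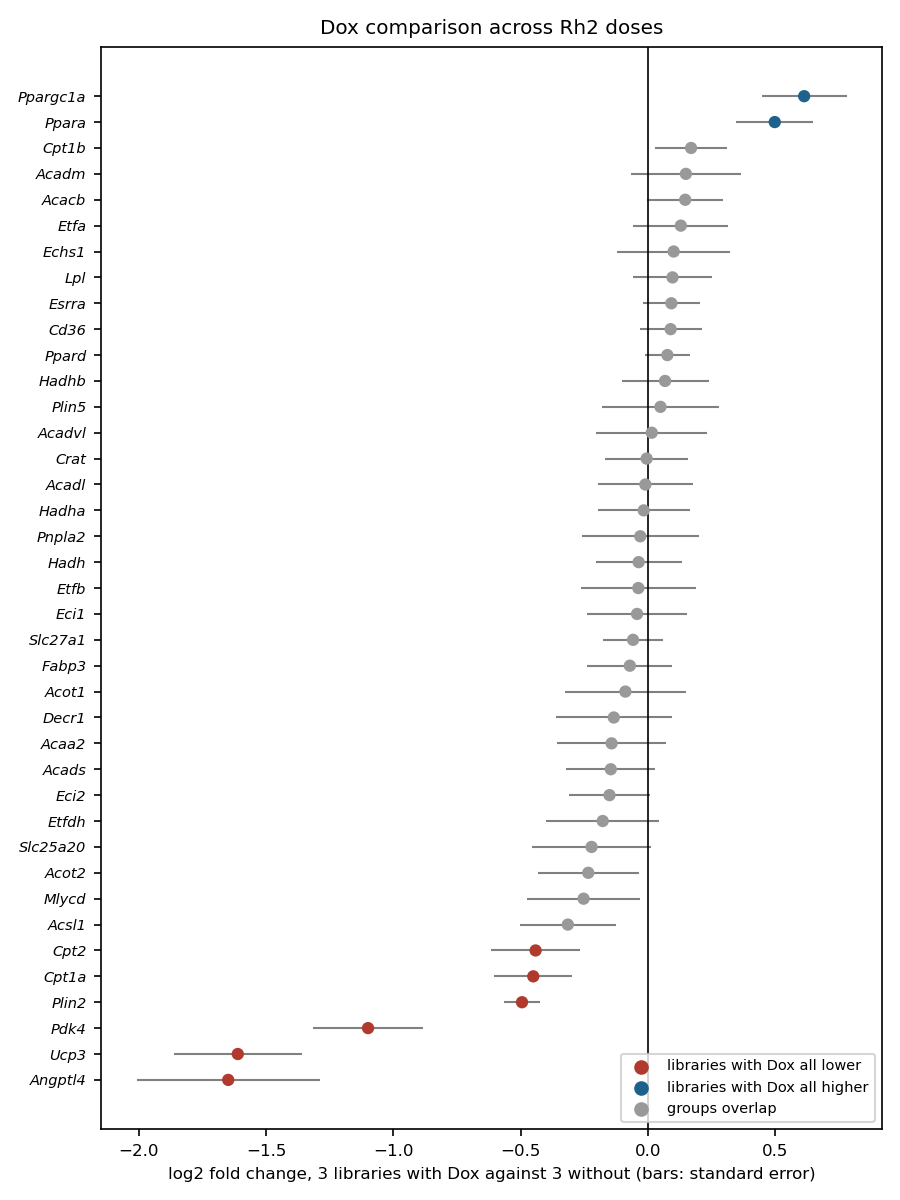
The log2 fold change of each of the 39 members in the 3 libraries with Dox against the 3 without (points) with its standard error (bars), coloured by whether the library groups overlap. Angptl4, Ucp3 and Pdk4 lie lowest at -1.65, -1.61 and -1.10, and Ppargc1a and Ppara highest at 0.61 and 0.50, while the groups of 31 members overlap.

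Ucp3 encodes an uncoupling protein of the inner mitochondrial membrane in muscle and is a PPAR target. The gene (gene ID 22229) lies at chr7:100472991-100486432 on the RefSeq annotation of GRCm38.p6. It was 46.3 CPM in Control, 35.4 with Rh2-20 mg/kg, 44.3 with Rh2-30 mg/kg, 11.5 with Dox, 10.3 with Rh2-20 mg/kg + Dox and 19.5 with Rh2-30 mg/kg + Dox. The libraries with Dox were all low, with Rh2-30 mg/kg + Dox the highest of them and still below every library without Dox. The log2 fold change with Dox was -1.61 ± 0.25 (SE, 3 libraries against 3, adjusted p = 0.149 by edgeR). Without the Rh2-30 mg/kg + Dox library it was -1.95 and passed, in a fit that called 0.0273% of all genes as lower. Over 14 other settings its log2 fold change ran from -1.95 to -1.44 and its adjusted p from 9.25e-08 to 0.476.

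The Ucp3 gene is also active in skeletal muscle and brown fat. The brown fat list summed to 190 CPM in Rh2-30 mg/kg and to 94.3 to 123 CPM in the other libraries. Its part in the Ucp3 values was not tested. Of the skeletal muscle list, Myod1 and Myog were at 0 counts in all 6 libraries, and Myh4 was at most 0.123 CPM. Of the 15 skeletal muscle genes listed, 11 could be tested. Their log2 fold changes ran from -1.29 to 0.86 in Dox against Control, with 4 above 0. With Dox at 20 mg/kg Rh2 they ran from -1.19 to 5.78 (6 above 0), and at 30 mg/kg from -2.08 to 1.71 (7 above 0). The sum over all 15 ran from 348 to 567 CPM without Dox and from 334 to 357 with it, most of it Acta1, which the heart also expresses. The part of skeletal muscle in the Ucp3 values was not tested.

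Pdk4 (gene ID 27273, chr6:5483351-5496278), the kinase that switches off pyruvate dehydrogenase and so spares glucose when fat is burned, was 305 CPM in Control, 328 with Rh2-20 mg/kg, 381 with Rh2-30 mg/kg, 120 with Dox, 141 with Rh2-20 mg/kg + Dox and 212 with Rh2-30 mg/kg + Dox. Within the libraries with Dox the level was higher with each Rh2 dose, and none reached the lowest library without Dox. With Dox its log2 fold change was -1.10 ± 0.22 (SE, adjusted p = 0.216 by edgeR) and ran from -1.37 to -0.94 over the other settings, with an adjusted p from 6.96e-05 to 0.476.

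Angptl4 (gene ID 57875, chr17:33774900-33781575) was 5.39 CPM in Control, 3.95 with Rh2-20 mg/kg, 9.72 with Rh2-30 mg/kg, 2.51 with Dox, 2.03 with Rh2-20 mg/kg + Dox and 1.54 with Rh2-30 mg/kg + Dox. It rested on 134 to 922 counts, the fewest of any member. Unlike Ucp3 and Pdk4 it was lowest in Rh2-30 mg/kg + Dox, and its highest value stood in the library with the raised fat and atrial markers. The log2 fold change with Dox was -1.65 ± 0.36 (SE, adjusted p = 0.247 by edgeR) and was -1.19 without the Rh2-30 mg/kg library. Fat tissue makes Angptl4, and the part of the fat markers in its Rh2-30 mg/kg value was not tested.

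Plin2, which coats lipid droplets, showed the closest agreement within groups. Its level was 74.5 CPM in Control, 72.5 with Rh2-20 mg/kg, 72.2 with Rh2-30 mg/kg, 52.4 with Dox, 52.4 with Rh2-20 mg/kg + Dox and 50.8 with Rh2-30 mg/kg + Dox. The values within each group differed by far less than the gap between the groups, at every Rh2 dose. Its log2 fold change was -0.49 ± 0.07 (SE, adjusted p = 0.121 by edgeR). Over the other settings the change ran from -0.65 to -0.48, with an adjusted p from 3.73e-08 to 0.9999.

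At the carnitine shuttle, Cpt1a, which makes acylcarnitines at the outer mitochondrial membrane, was 194 CPM in Control, 175 with Rh2-20 mg/kg, 181 with Rh2-30 mg/kg, 107 with Dox, 131 with Rh2-20 mg/kg + Dox and 163 with Rh2-30 mg/kg + Dox. Cpt2, which turns them back into acyl-CoA inside, was 73.9, 94.3 and 78.8 CPM in the same 3 libraries without Dox and 47.1, 61.4 and 73.4 CPM in the 3 with it, in the same order. In both genes the library with Dox alone was lowest and Rh2-30 mg/kg + Dox was the highest of the libraries with Dox, close to Control in the case of Cpt2. Their log2 fold changes were -0.45 ± 0.15 for Cpt1a (SE, adjusted p = 0.408 by edgeR) and -0.44 ± 0.17 for Cpt2 (adjusted p = 0.464 by edgeR). With 1 library left out the value ran from -0.62 to -0.31 for Cpt1a and from -0.60 to -0.29 for Cpt2, smallest in size without Dox and largest without Rh2-30 mg/kg + Dox in both genes.

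Cpt1b did not follow Cpt1a. It was 522 CPM in Control, 560 with Rh2-20 mg/kg, 468 with Rh2-30 mg/kg, 573 with Dox, 491 with Rh2-20 mg/kg + Dox and 679 with Rh2-30 mg/kg + Dox. The groups overlapped, with a log2 fold change of 0.17 ± 0.14 (SE, adjusted p = 0.733 by edgeR). That value was 0.0423 without Rh2-30 mg/kg + Dox, 0.28 without Rh2-20 mg/kg + Dox and 0.00205 with cardiomyocyte scaling. Of the other entry genes, Slc25a20 (the carnitine-acylcarnitine carrier) had a log2 fold change of -0.22 ± 0.23, Mlycd (which breaks down malonyl-CoA, the inhibitor of carnitine palmitoyltransferase 1) -0.25 ± 0.22, and Acacb (which makes malonyl-CoA at mitochondria) 0.15 ± 0.15, all with overlapping groups.

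**Figure D3:**
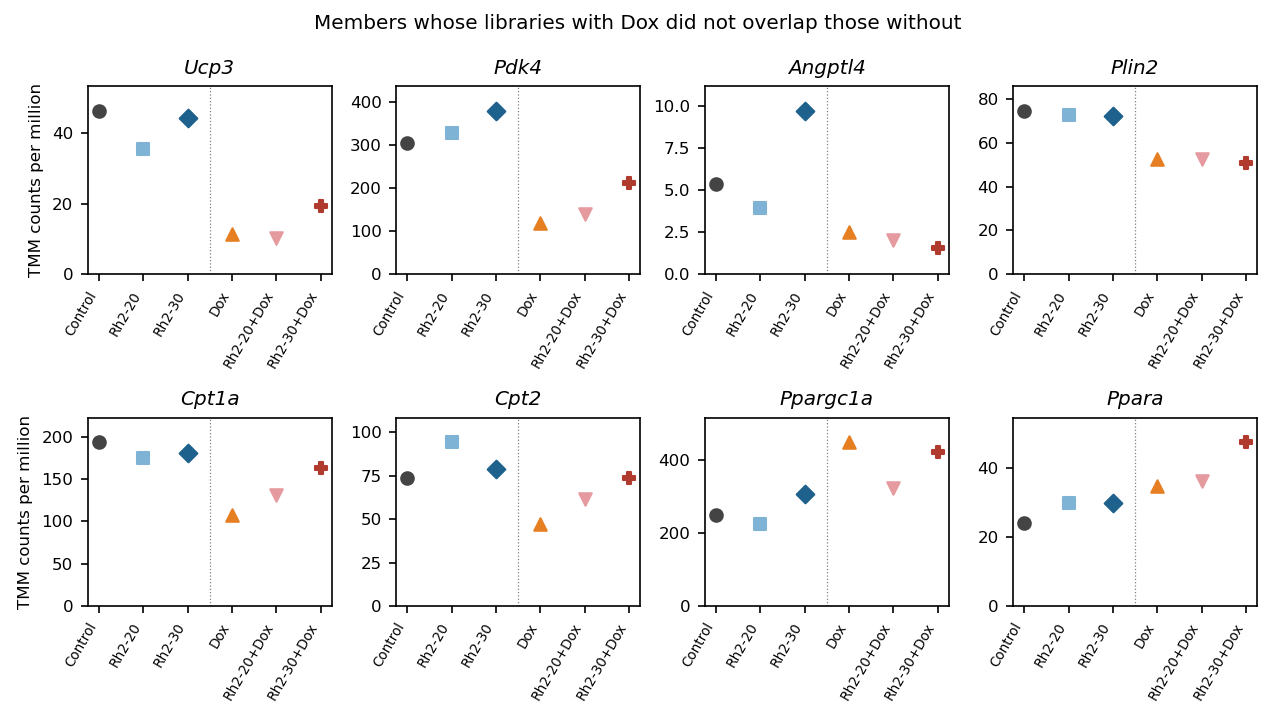
TMM-scaled CPM of the 8 members whose 3 libraries with Dox (right of the dotted line) did not overlap the 3 without (left), 1 point per library, each axis from 0. Plin2 is nearly level within each group, Ucp3 and Pdk4 are higher in Rh2-30 mg/kg + Dox than in Dox, and Angptl4 is lowest in Rh2-30 mg/kg + Dox at 1.54.

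Of the 4 regulators, Ppargc1a and Ppara were higher in all 3 libraries with Dox than in those without, and Ppard and Esrra overlapped. None passed an adjusted p of 0.05 by edgeR. Ppargc1a was 249 CPM in Control, 224 with Rh2-20 mg/kg, 307 with Rh2-30 mg/kg, 448 with Dox, 323 with Rh2-20 mg/kg + Dox and 422 with Rh2-30 mg/kg + Dox. The groups came near each other at 307 and 323 CPM, and scaling by library size alone made them overlap. Its log2 fold change with Dox was 0.61 ± 0.17 (SE, adjusted p = 0.333 by edgeR).

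Ppara, the PPAR that dominates in heart and liver, was 24.03 CPM in Control, 30.0 with Rh2-20 mg/kg, 29.9 with Rh2-30 mg/kg, 34.7 with Dox, 36.2 with Rh2-20 mg/kg + Dox and 47.5 with Rh2-30 mg/kg + Dox. Control was lowest and Rh2-30 mg/kg + Dox highest, and the log2 fold change was 0.50 ± 0.15 (SE, adjusted p = 0.364 by edgeR). The deposited FPKM did not keep this order. Ppara was 2.47 FPKM in Control and 4.03 and 5.18 FPKM with Rh2 at 20 and 30 mg/kg, and 4.72, 4.16 and 4.90 FPKM in the same order with Dox, so on that scale the groups overlapped. When the libraries were scaled to the cardiomyocyte list, neither Ppara nor Ppargc1a was separate, whereas the 6 members below remained separate and were joined by Fabp3 and Acsl1. The share over all genes was not computed at that scaling.

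Ppard and Esrra, 2 further receptors of the pathway, varied little. Ppard ranged from 13.5 to 15.1 CPM and Esrra from 13.5 to 17.1 CPM over all 6 libraries, and their log2 fold changes with Dox were 0.08 ± 0.09 and 0.09 ± 0.11.

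Setting single libraries against Control, with no test, the members past a 2-fold difference were Ucp3, Pdk4 and Angptl4, all lower. The 3 were past it in Dox, where 3.58% of all genes were lower by that much, and in Rh2-20 mg/kg + Dox, where 3.62% were. In Rh2-30 mg/kg + Dox only Ucp3 and Angptl4 were (6.85% of all genes), and Pdk4 was at 0.70 of Control. No member was 2-fold higher than Control in any treated library, where 3.35% of all genes were with Rh2-20 mg/kg, 8.48% with Rh2-30 mg/kg, 5.44% with Dox, 5.13% with Rh2-20 mg/kg + Dox and 4.08% with Rh2-30 mg/kg + Dox. With Rh2 alone none was 2-fold lower, against 2.8% of all genes at 20 mg/kg and 1.63% at 30 mg/kg. Ucp3 in Dox was at 0.25 of Control. Its exact binomial interval, which covers counting error only, was -2.11 to -1.91 on the log2 scale, and an interval that adds a common dispersion over all 6 libraries was -2.69 to -1.33 with a robust estimate of it (0.0285) and -3.19 to -0.83 with edgeR's default estimate (0.0864). These comparisons share the Control library.

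The 15 enzymes of beta-oxidation and ETF differed together and by small amounts. Against Control their median log2 fold change was 0.26 with Rh2-20 mg/kg, -0.06 with Rh2-30 mg/kg, -0.29 with Dox, -0.03 with Rh2-20 mg/kg + Dox and 0.34 with Rh2-30 mg/kg + Dox. Over all 18328 genes these medians ran from -0.00785 to 0.0341. The median in Dox stayed below Control under every scaling run, from -0.30 to -0.18. That of Rh2-30 mg/kg + Dox was 0.16 with cardiomyocyte scaling and turned to -0.13 with mitochondrial content scaling. The 2 medians near 0 by TMM changed sign with library size alone and with cardiomyocyte scaling. They became 0.06 and 0.08 for Rh2-20 mg/kg + Dox, and 0.11 and 0.31 for Rh2-30 mg/kg alone. All 15 were below Control in Dox (50.5% of all genes were), from -0.69 for Decr1, the reductase of unsaturated fatty acids, to -0.13 for Etfa, the ETF alpha subunit. All 15 were also above Dox in both Rh2 + Dox libraries, by 0.13 to 0.63 at 20 mg/kg (50.7% of all genes were above) and by 0.54 to 0.98 at 30 mg/kg (46.8%). Scaled to a list of 23 mitochondrial content genes (respiratory chain, citric acid cycle and related genes), 12 of the 15 kept this order of below Control in Dox and above Dox in both Rh2 + Dox libraries. Their median against Dox was then 0.11 in place of 0.27 at 20 mg/kg, and 0.12 in place of 0.70 at 30 mg/kg.

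Cell type lists differed between the same libraries. In Rh2-30 mg/kg + Dox against Dox, 20 of 23 cardiomyocyte genes were higher (median log2 fold change 0.27), 0 of 12 fibroblast genes were (-0.72) and 2 of 17 macrophage genes were (-0.45). In Rh2-20 mg/kg + Dox against Dox these medians were -0.0498, 0.0541 and 0.27. In Dox against Control they were -0.03, 0.07 and -0.16. The atrial median was -2.27 for Rh2-30 mg/kg + Dox against Dox (0 of 10 higher), 0.04 for Rh2-20 mg/kg + Dox against Dox and 2.62 for Dox against Control. The white fat medians of these pairs were -4.89 (3 of 13 higher), -0.64 and 2.64. The part of these lists in the enzyme values was not tested.

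Decr1 was 149 CPM in Control, 167 with Rh2-20 mg/kg, 143 with Rh2-30 mg/kg, 92.6 with Dox, 143 with Rh2-20 mg/kg + Dox and 183 with Rh2-30 mg/kg + Dox. Dox alone was thus the single low library. Acadm, the medium-chain acyl-CoA dehydrogenase, ranged from 413 CPM in Dox to 715 in Rh2-30 mg/kg + Dox with 456 in Control, and Hadha, the alpha subunit of the trifunctional protein, from 508 in Dox to 763 in Rh2-30 mg/kg + Dox with 602 in Control. Because the libraries with Dox held both the lowest and the highest value of most of these enzymes, none separated in the comparison of 3 libraries against 3, where their log2 fold changes ran from -0.18 for Etfdh to 0.15 for Acadm.

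Among all 39 members, 24 had their lowest level in Dox (61.5%, against 20.1% of all genes). There were 28 members below Control in Dox and above Dox in both Rh2 + Dox libraries (71.8%, against 25.2%), a count that uses the Dox library throughout. That count was also 28 with DESeq2 size factors, library size alone or cardiomyocyte scaling, and 22 after scaling to a mitochondrial content list. For these scalings no share over all genes was computed. At 1.5-fold, 24 members were higher in Rh2-30 mg/kg + Dox than in Dox (8.08% of all genes) and 1, Angptl4, was lower (14.3%). For Rh2-20 mg/kg + Dox against Dox the intervals of 0 members left out 0, with the robust dispersion (6.95% of all genes) and with the default one (3.13%). At 30 mg/kg the count depended on how the spread was estimated. With the robust dispersion the intervals of 18 members left out 0 (13.4% of all genes), and with the default dispersion those of 0 members did (5.85%). Decr1, the member with the largest difference at 0.98 on the log2 scale, had intervals of 0.30 to 1.66 and -0.20 to 2.16.

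The rank of Rh2-30 mg/kg + Dox depended on the scaling. There were 25 members highest in that library by TMM (64.1%, against 20.2% of all genes), 18 by library size alone and 4 when scaled to the cardiomyocyte list. The share over all genes was computed for TMM only. The median of the 39 members in Rh2-30 mg/kg against Control was -0.05 by TMM, 0.12 by library size alone and 0.32 by the cardiomyocyte list, so its sign was set by the scaling. Relative to TMM, the cardiomyocyte scaling moved every gene by 0.30 in Rh2-30 mg/kg and by -0.25 in Rh2-30 mg/kg + Dox on the log2 scale.

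**Figure D4:**
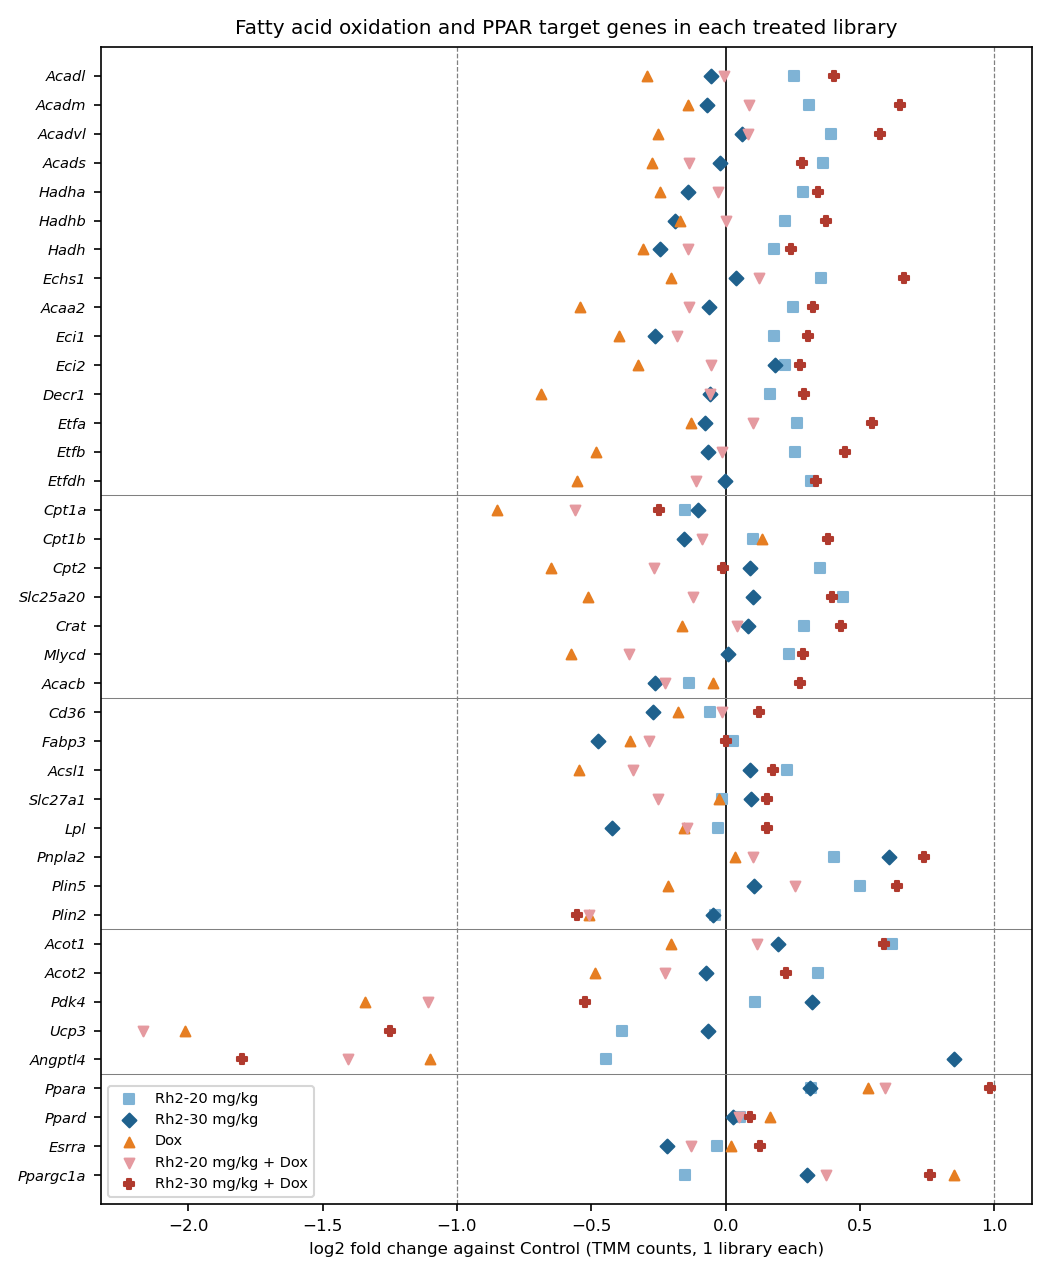
The log2 fold change of each of the 39 members in the 5 treated libraries against Control (1 library each, TMM counts), with horizontal lines between groups of members and dashed lines at 2-fold. The 15 enzymes at the top lie below 0 in Dox and above 0 in Rh2-30 mg/kg + Dox and with Rh2-20 mg/kg alone, and Ucp3, Pdk4 and Angptl4 are past 2-fold lower.

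The mitochondrial content list, which holds no member, was set beside the members. Its median log2 fold change against Control was 0.21 with Rh2-20 mg/kg, -0.09 with Rh2-30 mg/kg, -0.15 with Dox, 0.06 with Rh2-20 mg/kg + Dox and 0.48 with Rh2-30 mg/kg + Dox, and its summed level ran from 9443 CPM in Dox to 14412 CPM in Rh2-30 mg/kg + Dox. Its order over the libraries was close to that of the beta-oxidation enzymes. Scaled to this list, the median of the 15 enzymes became -0.18 for Dox and -0.13 for Rh2-30 mg/kg + Dox, each relative to Control. By this scaling 17 members lay below in all 3 libraries with Dox, but the share over all genes was not computed. Relative to TMM, the scaling moved every gene in Rh2-30 mg/kg + Dox by -0.38 on the log2 scale.

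**Figure D5:**
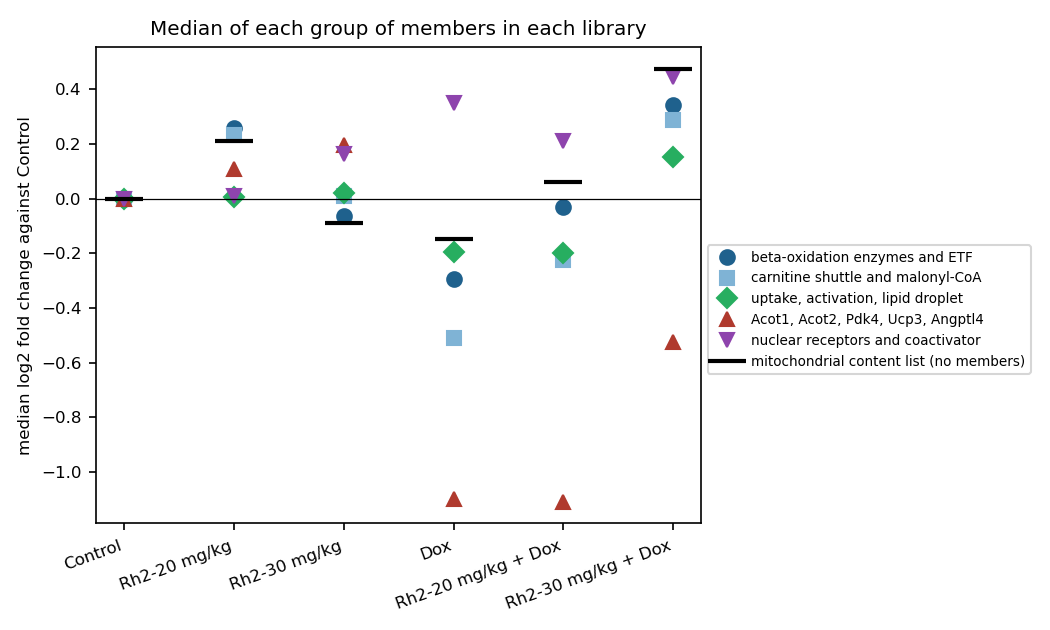
Median log2 fold change against Control (0 for Control itself) of 5 groups of members and of the mitochondrial content list, by library. The 15 enzymes (-0.29 in Dox, 0.34 in Rh2-30 mg/kg + Dox) lie near the mitochondrial list (-0.15 and 0.48), the group with Ucp3, Pdk4 and Angptl4 lies at -1.10 and -0.52, and the regulators lie at 0.35 and 0.45.

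For uptake and storage, Cd36, the fatty acid translocase, was 906 CPM in Control, 870 with Rh2-20 mg/kg, 751 with Rh2-30 mg/kg, 802 with Dox, 899 with Rh2-20 mg/kg + Dox and 987 with Rh2-30 mg/kg + Dox. The groups overlapped and its log2 fold change with Dox was 0.09 ± 0.12 (SE, adjusted p = 0.850 by edgeR), of the opposite sign with cardiomyocyte scaling and with FPKM. Fabp3 and Lpl were lowest in Rh2-30 mg/kg, at 594 and 1117 CPM against 826 and 1497 in Control, in the library where the cardiomyocyte list was also lowest. Acsl1, the main acyl-CoA synthetase of heart, was 400 CPM in Control, 469 with Rh2-20 mg/kg, 426 with Rh2-30 mg/kg, 274 with Dox, 315 with Rh2-20 mg/kg + Dox and 452 with Rh2-30 mg/kg + Dox. Pnpla2, the first lipase of triglyceride breakdown, ranged from 123 CPM in Control to 205.5 in Rh2-30 mg/kg + Dox, and Plin5, which tethers droplets to mitochondria, from 25.4 in Dox to 45.8 in Rh2-30 mg/kg + Dox.

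The acyl-CoA thioesterases Acot1 and Acot2 lie next to each other and are near-identical paralogs, so their counts may share reads and are uncertain. Acot1 ranged from 10.9 to 19.3 CPM and Acot2 from 55.8 to 99.4 CPM, both lowest in Dox and highest in Rh2-20 mg/kg.

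Rh2 was compared across the libraries with and without Dox in a model with terms for both drugs. By edgeR's quasi-likelihood test 0 members and 0 of all genes passed an adjusted p of 0.05 for either Rh2 dose against none or for 30 against 20 mg/kg. DESeq2 called 1 member, Pnpla2, for 30 mg/kg against none (0.491% of all genes) and 0 in the other contrasts. At an unadjusted p of 0.05, 0 members differed with Rh2-20 mg/kg (1.43% of all genes were higher and 1.71% lower). With Rh2-30 mg/kg 4 members were higher (3.33% of all genes) and 0 lower (3.97%). Their log2 fold changes were 0.66 for Pnpla2, 0.57 for Pdk4, 0.40 for Eci2 and 0.39 for Ppara, each with an adjusted p of 0.682 by edgeR.

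That contrast rested on single libraries. Without the Rh2-30 mg/kg library 29 members passed (7.53% of all genes) with a median over the 39 of 0.66, and without Rh2-30 mg/kg + Dox 3 passed, Fabp3, Lpl and Angptl4 (7.91% of all genes), with a median of -0.01. In each of these fits 1 library stands for the dose and is assumed to vary like the others. For 30 against 20 mg/kg the same omissions gave 11 members (2.17% of all genes) and 5 members (4.04%).

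Other genes of the pathway, listed by function, gave 0 calls by edgeR in any list at an adjusted p of 0.05. Among 28 further oxidation enzymes 1 was higher and 1 lower at an unadjusted p of 0.05, the acyl-CoA dehydrogenase Acad10 (log2 fold change 0.43 ± 0.11) and the peroxisomal enzyme Ehhadh (-0.57 ± 0.21). Among 22 genes of uptake and activation 2 were higher and 4 lower, among 21 of lipid droplets 3 and 2, among 31 tested PPAR targets 1 and 2, and among 31 regulators 3 and 0. Of all genes, 4.2% were higher and 5.91% lower at that cutoff. Gpam, which starts glycerolipid synthesis, was 295, 276 and 234 CPM without Dox and 159, 172 and 203 with it, and Lpin2, a phosphatidate phosphatase, was 37.8, 39.03 and 42.1 without and 59.9, 54.7 and 58.99 with it. In both genes the groups did not overlap, with log2 fold changes of -0.59 ± 0.13 and 0.55 ± 0.08 (adjusted p = 0.255 and 0.142 by edgeR). Of all genes, 9.16% lay below and 7.85% above in this way, and both genes were picked with their values in view. Perm1, a partner of Ppargc1a in muscle, was 153, 152 and 121 CPM without Dox and 209, 163 and 217 with it. The fat droplet genes Plin1 and Cidec had their highest levels in the library where the fat markers were highest, Rh2-30 mg/kg, at 12.8 and 16.3 CPM against 0.12 and 0.48 in Control.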

How the data were processed

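Hearts of 6 conditions were sequenced as 1 library each. Per the labels and the study's methods, the authors trimmed reads (Trimmomatic), aligned them to mm10 with HISAT2 2.1.0 and used StringTie 2.1.3b with a UCSC annotation, after capture with SureSelect probes. Deposited were read counts, FPKM and TPM per gene. Counts were used for every test, and the authors' FPKM for levels between genes and as an alternative. TPM was not used. Strand use in counting was not given in the sources used here.

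Counts were tested with edgeR 4.0.16 (R 4.3.3), TMM scaling, a mean count of 10 as the minimum per gene, quasi-likelihood fits and Benjamini-Hochberg adjustment over 18328 genes. Dox was tested as 3 libraries against 3, and Rh2 in a model with both drugs. A printed standard error is the log2 fold change divided by the root of the F statistic. Because libraries of a group differ in Rh2 dose, p-values measure the spread between these libraries. Pairs of single libraries got no test, only a log2 fold change (prior count 0.5), an exact binomial 95% interval for counting error and one adding a common dispersion, estimated robustly (0.0285) or by edgeR's default (0.0864, added after seeing the data). The robust estimate was first taken because an earlier analysis of these data used it, and both are printed because the intervals differ in width. Only the Dox fit was tried on simulated counts, which had a constant dispersion and no Rh2 effect. DESeq2 1.42.0, limma 3.58.1 on log2(FPKM + 1) and log2(FPKM + 0.1), other scalings, no filter and leaving out each library were alternatives. Scaling to the mitochondrial content list, and recounting patterns under each scaling, were added after seeing the data. Values per library were given for members past 2-fold of Control, members whose groups did not overlap, and Cpt1b, Cd36, Pdk4, Ppara and Ppargc1a. Decr1, Acadm, Hadha and the other members with values were picked with their values in view. The members and lists were chosen with earlier results of these data known.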

Additional observations from a re-analysis of the deposited data

Results flagged for a closer look

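The median log2 fold change of the 39 members with Dox differed in sign between Rh2 doses. It was -0.27 without Rh2 (Dox against Control), -0.30 at 20 mg/kg (Rh2-20 mg/kg + Dox against Rh2-20 mg/kg) and 0.39 at 30 mg/kg (Rh2-30 mg/kg + Dox against Rh2-30 mg/kg). Each value compares 1 library with 1 other, and the difference between doses was not tested. The median of the last pair became -0.16 when the libraries were scaled to the cardiomyocyte list. The atrial list summed to 1825 CPM in Rh2-30 mg/kg and 110 CPM in Rh2-30 mg/kg + Dox. For that pair the median log2 fold change was 0.58 over the cardiomyocyte list (22 of 23 genes higher), -1.44 over fibroblast genes (0 of 12), -1.31 over macrophage genes (1 of 17) and 0.51 over the mitochondrial content list (22 of 23), and the part of these lists in the members' median was not tested. Ucp3, Pdk4, Angptl4, Plin2, Cpt1a and Cpt2 were lower with Dox at all 3 doses, as 17.6% of all genes were. Their libraries with Dox all lay below those without, so this order at each dose follows and is no separate result.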

How the results depend on the processing

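With 1 pooled library per condition, no condition has its own replicate error, and what is called spread includes Rh2 dose and tissue make-up. No paired analysis was possible from replicate numbers because the labels give none. Rh2 dose as a term, the nearest to a replicate block, gave 0 calls among all genes and 0 members. The cause of the changes below was not tested.

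The 5 genes called with Dox became 3 with cardiomyocyte scaling, 0 with mitochondrial content scaling, 423 with DESeq2 and 0 with log2(FPKM + 1), and 0 to 14 when a library was left out. The 0 members called became 5 with DESeq2 and 0 to 1 when a library was left out, the 1 being Ucp3 without Rh2-30 mg/kg + Dox. The log2 fold change of Cd36 turned to -0.0663 with cardiomyocyte scaling, -0.0842 with log2(FPKM + 1) and -0.0845 with log2(FPKM + 0.1).

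For Rh2, DESeq2 called 24 genes for 20 mg/kg, 90 and 1 member for 30 mg/kg and 6 for 30 against 20. Leaving out a library gave 0 to 41 genes for 20 mg/kg, 0 to 1450 genes and 0 to 29 members for 30 mg/kg, and 0 to 740 genes and 0 to 11 members for 30 against 20.

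The median of the members against Control moved, for Rh2-20 mg/kg, to 0.30 with library size alone, cardiomyocyte scaling and both FPKM scales, and to 0.0313 with mitochondrial scaling. In Rh2-30 mg/kg it moved to 0.12, 0.32 and -0.00742 with library size, cardiomyocyte and mitochondrial scaling, and to 0.0906 and 0.0910 with log2(FPKM + 1) and log2(FPKM + 0.1). In Dox it was -0.16 with mitochondrial scaling. In Rh2-20 mg/kg + Dox it was -0.0228, 0.000302 and -0.15 with the 3 scalings, -0.0440 with log2(FPKM + 1) and -0.0455 with log2(FPKM + 0.1). In Rh2-30 mg/kg + Dox it was 0.11 and -0.18 with cardiomyocyte and mitochondrial scaling. Against Dox, the median in Rh2-20 mg/kg + Dox was 0.28, 0.29 and 0.0568 with the 3 scalings, 0.26 with log2(FPKM + 1) and 0.27 with log2(FPKM + 0.1), and for Rh2-30 mg/kg + Dox 0.42 and 0.0522 with cardiomyocyte and mitochondrial scaling and 0.58 with log2(FPKM + 1). Against the same Rh2 dose, it was -0.26 and -0.15 at 20 mg/kg with cardiomyocyte and mitochondrial scaling, and at 30 mg/kg 0.21, -0.16 and -0.12 with the 3 scalings, 0.19 with log2(FPKM + 1) and 0.21 with log2(FPKM + 0.1).

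At 1.5-fold instead of 2-fold, 1 member was past the fold with Rh2-20 mg/kg relative to Control, where 6.95% of all genes were higher and 6.62% lower. With Rh2-30 mg/kg 2 were (16.1% higher and 5.67% lower), with Dox 7 (11% and 8.58%) and with Rh2-30 mg/kg + Dox 9 (8.81% and 13.9%). Against Dox, 1 was past it in Rh2-20 mg/kg + Dox (6.93% and 7.4%) and 25 in Rh2-30 mg/kg + Dox (8.08% and 14.3%). Against the same Rh2 dose, 5 were at 20 mg/kg (8.64% and 6.62%) and 7 at 30 mg/kg (6.96% and 20.4%). At 2-fold, Rh2-30 mg/kg against Control had 1 with library size alone, cardiomyocyte scaling and log2(FPKM + 0.1), Rh2-30 mg/kg + Dox had 1 against Control with log2(FPKM + 1), and it had 4 against Rh2-30 mg/kg with cardiomyocyte scaling. For these 2-fold counts no share over all genes was computed.

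Members with all libraries with Dox above those without numbered 1 with library size alone, 0 with cardiomyocyte, 1 with mitochondrial scaling, 1 with FPKM and 2 to 5 with a library left out. Those all below numbered 17 with mitochondrial scaling and 5 to 16 with a library left out, 16 being without Rh2-30 mg/kg + Dox. Lower at each Rh2 dose were 25 and 21 with cardiomyocyte and mitochondrial scaling, and higher at each dose 1 with cardiomyocyte scaling and 1 with FPKM. Shares over all genes were not computed at these settings, so the counts cannot be read as particular to the members. The median log2 fold change of all genes with Dox was -0.18 with cardiomyocyte and -0.08 with mitochondrial scaling, against -0.0148 by TMM.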
